A study of Mus musculus with 8 samples.

Results

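The mitochondrial ribosomal protein genes were taken as every row of the deposited expression table whose symbol starts with Mrpl or Mrps and a number, leaving out the 5 rows named as pseudogenes (Mrpl23-ps1, Mrpl48-ps, Mrps36-ps1, Mrps36-ps2 and Mrps36-ps3). The rule gave 78 of the 53247 genes in the table, and all 78 passed the filter on low values that left 13850 genes for testing. By role, 51 belong to the large subunit and 26 to the small subunit, while Mrps36 carries the name but is known as a component of the 2-oxoglutarate dehydrogenase complex. The rule used symbols only.

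The expression profiles came from tumor-associated macrophages (TAMs), the macrophages that settle in a tumor, sorted on F4/80 and MHC II together with the leukocyte marker CD45 and the myeloid marker CD11b (positive for all 4). Lewis lung carcinoma (LLC) cells, a mouse lung tumor line, had been placed under the skin of C57/BL6 mice, and the tumors were taken after 14 days. The WT group held 4 samples from mice with an intact miR-21 gene, and the miR-21-/- group held 4 samples from miR-21 null mice; the age given for every sample was 10 weeks. The miR-21 null mice lacked the microRNA in the whole body, so every host cell in the tumor lacked it and not the macrophages alone. The labels call the samples biological replicates without tying each one to a mouse, and 1 of the miR-21-/- titles joins a pair of numbers, so the p-values measure the spread between these samples. The comparison asks how loss of miR-21 in the host changed the RNA of the TAMs, here for the proteins of the mitochondrial ribosome.

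Mitochondria keep their own ribosome, which translates the few mRNAs of the mitochondrial genome, all of them for core subunits of the oxidative phosphorylation complexes. Its rRNAs are made inside the organelle, but its proteins are encoded in the nucleus, translated in the cytosol and imported. Many of them have a counterpart in the bacterial ribosome, and the others were added during the evolution of mitochondria. Oxidative metabolism is a feature of some macrophage states, and it depends on this ribosome for its mitochondrially encoded subunits.

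Estimated depth was 20.2 to 33.3 in units of 1e+06 reads per sample. Levels are in CPM, counts scaled to 1e+06 per sample, and 1 read was worth 0.0301 to 0.0496 CPM. The targeted gene could not be checked, because Mir21a was listed at 0 in all 8 samples, as were all 37 genes of the mitochondrial genome, the rRNAs of the mitochondrial ribosome among them. The macrophage markers summed to 12508 to 14410 CPM in the WT samples and 13538 to 16043 CPM in the miR-21-/- samples, and 2 of 11 fell and 1 rose. Markers of other cells were far lower but moved with the genotype: the B cell list summed to 57.6 to 98.1 CPM in the WT samples and 15.4 to 24.7 CPM in those of the miR-21-/- group, and 2 of its 2 tested genes fell. The fibroblast list went from 67.0 to 143 CPM down to 11.6 to 45.9 CPM (5 of 6 tested genes fell), and the neutrophil list from 748 to 1129 CPM down to 563 to 732 CPM (4 of 5 fell). The remaining lists held 1 gene that fell among 9 tested for T and NK cells, with 2 that rose, 1 of 3 for epithelial or LLC-like tumor cells, 1 of 7 for dendritic cells, with 1 that rose, and none of 4 for endothelial cells. No marker was at 0 in all samples, and the part of these cells in the results was not tested. In sorted bulk RNA, fewer cells of a type and less RNA per cell cannot be told apart.

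The sequences that bear on the comparison are the seed of the deleted microRNA and its matches in the transcripts of the members. The mature miR-21a-5p (RefSeq, GRCm38.p6, minus strand, chr11:86584120-86584141) is shown with its seed, bases 2 to 8, in capitals.
mmu-miR-21a-5p: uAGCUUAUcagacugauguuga
For each gene the longest 3′ UTR among its protein-coding transcripts was used (GENCODE annotation, mm10). It was searched on the transcript strand for ATAAGCTA, which pairs with the whole seed and is followed by an A. The shorter matches ATAAGCT and TAAGCTA were searched for as well. No member held the 8-base match, against 2.23% of 11498 tested genes with an annotated coding transcript. A match of at least 7 bases was present in 6 of 78 members (7.69%), against 12.4% of those genes, and the median 3′ UTR was 388.5 bases in the members and 1169 bases in all. Per kb of 3′ UTR the members held 0.0788 such matches and all genes 0.0878. Matches of 5 of these members are printed with 10 bases on each side, the match in capitals, because these are members in which a direct pairing with the microRNA could be looked for.
Mrpl49, chr19:6053658-6053684, minus strand: atatacaattTAAGCTAttaaaattta
Mrpl58, chr11:115411773-115411799, plus strand: tcttaatcaaATAAGCTttgccctggt
Mrpl58, chr11:115412396-115412422, plus strand: aagccattgcTAAGCTAtacctcccag
Mrpl9, chr3:94450604-94450630, plus strand: tagacagttgTAAGCTAgtcagagcta
Mrps2, chr2:28471019-28471045, plus strand: cctaggccctTAAGCTAtaggacccat
Mrps26, chr2:130568162-130568188, plus strand: tcttacctacTAAGCTAtctctctagc
None of the 6 members with a match rose in miR-21-/- TAMs, where 9.49% of all tested genes did. At that share, 6 genes are too few for this count to be read as a result. Of the 5 printed, Mrpl49 fell (log2 fold change −0.27), and the log2 fold changes of the other 4, none past the test, were −0.17 for Mrps26, −0.13 for Mrps2, −0.094 for Mrpl9 and 0.038 for Mrpl58. The median of the 6 was −0.11, against −0.076 in the members without such a match; all tested genes with a match had a median of −0.070 and those without one −0.12.

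The mitochondrial ribosomal protein genes as a group stayed close to their WT level in miR-21-/- TAMs. Of the 78 members, 11 (14.1%) fell at an adjusted p of 0.05 or less, where 26.5% of all tested genes did, and 2 (2.56%) rose, where 9.49% of all tested genes did. The 11 were Mrps6, Mrpl23, Mrpl34, Mrpl24, Mrpl41, Mrps34, Mrpl53, Mrpl49, Mrps35, Mrpl50 and Mrpl43, and the 2 were Mrpl39 and Mrpl13. At the limits used by the study, an adjusted p of 0.005 or less and a change over 1.5-fold, 1 member (Mrps6) was lower in the limma fit, where 4.23% of all tested genes were, and 0 members were higher, where 2.89% were. This call of Mrps6 was lost without WT replicate 2 or 4 or miR-21-/- replicate 1, 3 or 4, and under both other scalings. At an unadjusted p under 0.05, 20 members (25.6%) were lower and 2 (2.56%) higher, where 34.1% and 12.3% of all tested genes were.

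The size of the changes was small. The median log2 fold change was −0.085 over the 78 members and −0.10 over all 13850 tested genes, and the interquartile range ran from −0.17 to −0.00059 over the members and from −0.27 to 0.064 over all genes. A change within 1.2-fold either way was seen for 68 of 78 members (87.2%) and for 63.7% of all tested genes. Relative to the median of all genes, 43 members lay above and 35 below. The direction of the median depended on the scaling: rescaling by the median of ratios moved the median of the members to 0.020 and that of all genes to −0.0030, and quantile normalization moved them to 0.030 and −0.0076. The same rescaling turned the split of all called genes from 3668 lower and 1314 higher to 2036 lower and 2154 higher (median of ratios) or 2255 and 1901 (quantile), and that of the members from 11 and 2 to 4 and 3, or 3 and 6.

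**Figure D1:**
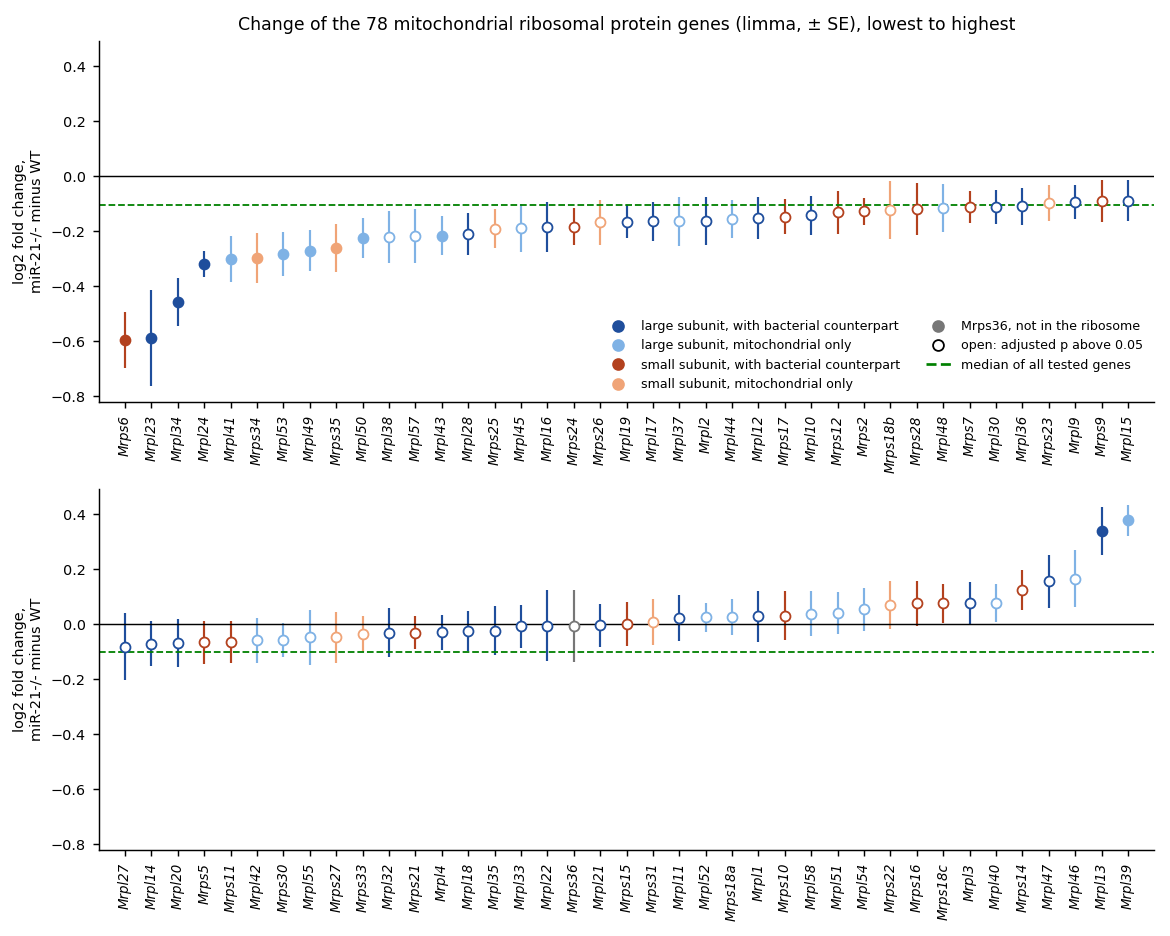
Log2 fold change of each of the 78 members, miR-21-/- minus WT, as a point with its standard error, ordered from Mrps6 to Mrpl39 over both rows and coloured by subunit and kind of protein. Filled points passed adjusted p 0.05 (11 lower, 2 higher), and the dashed line marks the median of all tested genes (−0.10).

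Summed over the members, the WT samples held 1328, 1321, 1367 and 1372 CPM, and the miR-21-/- samples 1220, 1292, 1291 and 1293 CPM. All 4 miR-21-/- sums lay under the lowest WT sum, and 3 of them lay between 1291 and 1293 CPM while miR-21-/- replicate 1, the sample whose title joins a pair of numbers, stood lower. This did not hold after rescaling by the median of ratios, where the sums were 1299, 1249, 1285 and 1337 in the WT samples and 1291, 1327, 1338 and 1329 in those of the miR-21-/- group, so the groups overlapped and 3 of the 4 miR-21-/- sums lay above 3 of the 4 WT sums. As a share of the counts listed in each sample, the members made up 0.167 to 0.174% in WT and 0.153 to 0.162% in miR-21-/- TAMs. Within its group, miR-21-/- replicate 1 had the lowest value of 43 of the 78 members, where the other 3 samples had the lowest of 9 to 15. Without that sample, 9 members were lower and 2 higher at the same limit, where 22.7% and 9.34% of all tested genes were. The count of 11 lower members was 6 without WT replicate 2, miR-21-/- replicate 2 or miR-21-/- replicate 4, where 18.8%, 21.1% and 22.03% of all tested genes were lower, and 7 without WT replicate 3, where 20.5% were. Each sample's median deviation from the gene means over all 8 samples was −0.11 on the log2 scale for the members and −0.076 for all genes in replicate 1, and −0.038 to −0.013 and −0.048 to −0.037 in the other miR-21-/- samples.

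By gene, the 4 WT and 4 miR-21-/- values did not overlap, with miR-21-/- lower, for 13 members (16.7%), where this was so for 25.7% of all tested genes, and with miR-21-/- higher for 2 members, where this was so for 9.44%. The 13 were 6 that also passed the test (Mrps6, Mrpl34, Mrpl24, Mrpl41, Mrpl53 and Mrpl49) and 7 that did not (Mrpl19, Mrpl28, Mrpl37, Mrpl38, Mrps2, Mrps7 and Mrps24).

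Proteins with a counterpart in the bacterial large subunit gave 3 genes that fell and 1 that rose among 29 (10.3% and 3.45%), with a median log2 fold change of −0.082. Of all tested genes 26.5% fell and 9.49% rose. The counts were again 3 and 1 under the median of ratios (14.7% and 15.6% of all genes), and 2 and 2 under quantile normalization (16.3% and 13.7% of all genes). Mrpl24, whose protein sits near the exit of the polypeptide tunnel, held 41.4, 41.9, 44.1 and 41.1 CPM in the WT samples and 33.4, 33.5, 33.8 and 33.6 CPM in those of the miR-21-/- group. Every miR-21-/- sample was lower than every WT sample, and the spread in the miR-21-/- group, relative to its mean, was the smallest of the 78 members. The means were 42.1 ± 1.33 and 33.6 ± 0.173 CPM (SD, n = 4 each). This was a log2 fold change of −0.32 (SE 0.0481, limma adjusted p = 0.000953).

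Mrpl34, the counterpart of a small basic protein of bacteria, held 7.72, 9.70, 8.81 and 8.05 CPM in the WT samples and 5.97, 5.58, 6.34 and 5.92 CPM in those of the miR-21-/- group. The groups were apart, and the miR-21-/- mean was 69.5% of the WT mean. Its log2 fold change was −0.46 (SE 0.0884, limma adjusted p = 0.00336). Mrpl13 moved the other way. It held 19.9, 19.5, 17.9 and 22.1 CPM in the WT samples and 22.2, 25.2, 25.9 and 28.3 CPM in those of the miR-21-/- group, so that the lowest miR-21-/- sample was only just above the highest WT sample. Its log2 fold change was 0.34 (SE 0.0860, limma adjusted p = 0.0129).

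Mrpl23, which with Mrpl24 lines the tunnel exit, was the member with the lowest level. It held 2.09, 2.40, 2.85 and 1.85 CPM in the WT samples and 1.90, 0.909, 0.698 and 1.40 CPM in those of the miR-21-/- group, an estimated 46 to 69 and 18 to 51 reads. The value of miR-21-/- replicate 1 lay inside the WT range. The log2 fold change was −0.59 (SE 0.174, limma adjusted p = 0.0249) and passed the limit in 4 of 8 fits when samples were left out in turn. The pseudogene Mrpl23-ps1 (2:74591330 to 74591910) is 100% identical to 81.7% of the coding sequence and took more of the counts, 18.0, 18.4, 20.2 and 18.4 CPM in the WT samples and 12.1, 11.5, 13.3 and 13.0 CPM in those of the miR-21-/- group. Reads of the gene and of this copy may have been divided between them, so each value on its own is uncertain. The values of gene and copy added together were 21.1 ± 1.37 CPM in the WT samples and 13.7 ± 0.892 CPM in those of the miR-21-/- group (SD, n = 4 each), with a log2 fold change of −0.58.

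Among the 22 large subunit proteins found only in mitochondria, 5 genes fell (22.7%, against 26.5% of all tested genes) and 1 rose (4.55%, against 9.49%), and the median log2 fold change was −0.087. None of the 22 was lower under the other 2 scalings, with 1 higher and a median of 0.019 under the median of ratios, and 3 higher and a median of 0.024 under quantile normalization. Mrpl39 was the clearest gain of any member. It held 15.6, 15.0, 15.1 and 15.3 CPM in the WT samples and 19.6, 20.2, 20.4 and 20.4 CPM in those of the miR-21-/- group. The 2 groups were narrow and far apart, at 15.3 ± 0.254 and 20.1 ± 0.391 CPM (SD, n = 4 each). The log2 fold change was 0.38 (SE 0.0556, limma adjusted p = 0.000827).

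The 5 that fell in this class were Mrpl41, Mrpl53, Mrpl49, Mrpl50 and Mrpl43. Mrpl41 held 8.93, 9.56, 9.35 and 8.01 CPM in the WT samples and 7.17, 7.67, 6.91 and 6.58 CPM in those of the miR-21-/- group, with no overlap (log2 fold change −0.30, SE 0.0835, limma adjusted p = 0.0192). Mrpl49, the member with a 7-base match that passed the test, held 17.4, 16.2, 16.2 and 18.8 CPM in the WT samples and 12.9, 14.2, 14.7 and 14.3 CPM in those of the miR-21-/- group. Here too the groups did not overlap (log2 fold change −0.27, SE 0.0733, limma adjusted p = 0.0173). Mrpl53 fell by 0.28, Mrpl50 by 0.22 and Mrpl43 by 0.22 on the log2 scale, with adjusted p of 0.0216, 0.0362 and 0.0363 in the limma fit. The groups overlapped for Mrpl50 and Mrpl43.

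In the small subunit 1 of 16 genes with a bacterial counterpart and 2 of 10 genes found only in mitochondria fell, where 26.5% of all tested genes did, and none rose, where 9.49% did. The medians were −0.079 and −0.11. Under both other scalings 1 of the 16 was lower and 1 higher, and none of the 10 was lower or higher. Mrps6 had the lowest log2 fold change of all members. It held 6.80, 6.63, 6.53 and 7.83 CPM in the WT samples and 3.77, 5.12, 4.18 and 4.03 CPM in those of the miR-21-/- group. Every miR-21-/- sample was lower than every WT sample, and the miR-21-/- mean was 61.5% of the WT mean. The log2 fold change was −0.59 (SE 0.102, limma adjusted p = 0.00187).

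Mrps34 and Mrps35 were the other 2 that fell. Mrps34 held 13.6, 14.1, 16.0 and 12.2 CPM in the WT samples and 10.8, 10.5, 11.0 and 12.3 CPM in those of the miR-21-/- group, so that 1 miR-21-/- sample lay inside the WT range (log2 fold change −0.30, SE 0.0901, limma adjusted p = 0.0274). Mrps35 held 13.6, 11.7, 12.9 and 13.0 CPM in the WT samples and 9.33, 10.7, 12.1 and 10.1 CPM in those of the miR-21-/- group, again with 1 sample inside the WT range (log2 fold change −0.26, SE 0.0888, limma adjusted p = 0.0432). Mrps6, Mrpl34, Mrpl24, Mrpl39 and Mrpl13 passed adjusted p 0.05 in all 18 alternative analyses, with adjusted p between 0.000214 and 0.0366. The other 8 called members did not pass in every one, and Mrps35 and Mrpl50 passed in 7 of 18. The 13 kept their direction in all the alternatives run for them.

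**Figure D2:**
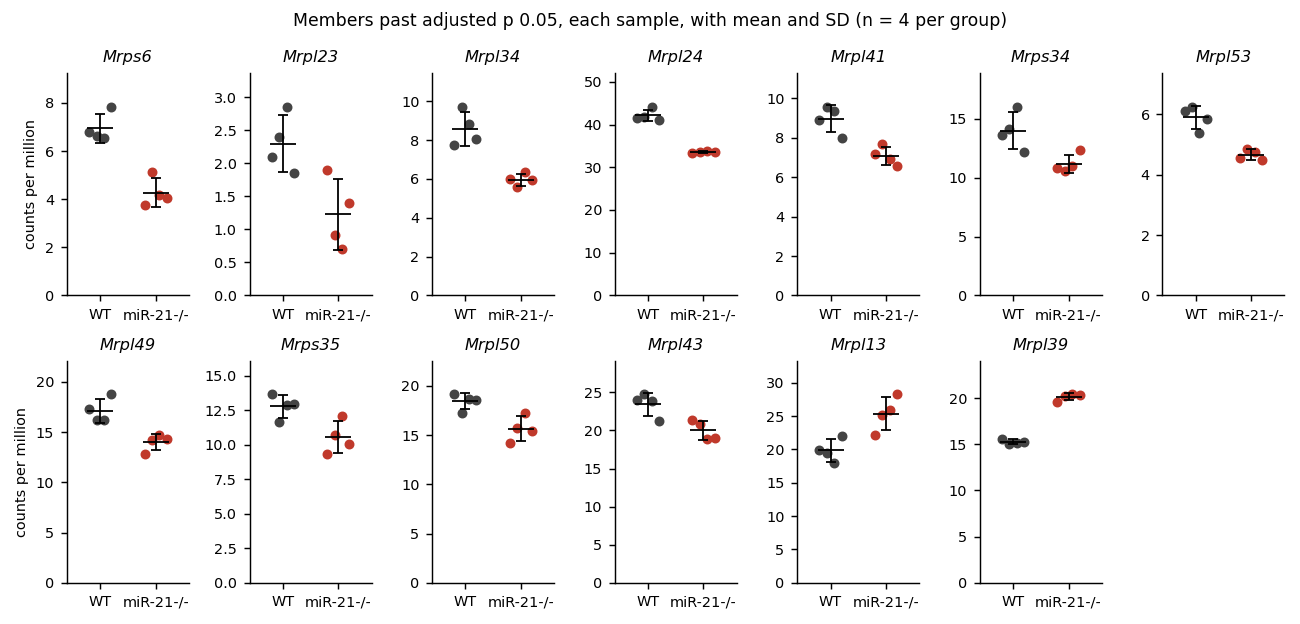
CPM of each sample (points) with the group mean and SD (bars, n = 4) for the 13 members past adjusted p 0.05, WT in grey and miR-21-/- in red, each panel from 0. Mrpl24 and Mrpl39 show the narrowest groups, and Mrpl23, Mrps34, Mrps35, Mrpl50 and Mrpl43 show overlapping ones.

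Members with a particular role in translation gave values on both sides of 0, none past the test. The stalk that recruits the translation factors is formed by Mrpl10, Mrpl11 and Mrpl12, whose log2 fold changes were −0.14, 0.023 and −0.15 (SE 0.0718, 0.0831 and 0.0758). Mrpl10 ranged from 26.0 to 28.2 CPM in WT and from 21.9 to 26.3 CPM in miR-21-/- TAMs, so the ranges overlapped. Mrps12, a protein of the decoding centre, had a log2 fold change of −0.13 as deposited and 0.020 after quantile normalization.

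The Mrps18 paralogs are a small family of which Mrps18a is built into the large subunit and Mrps18b and Mrps18c into the small subunit. Their log2 fold changes were 0.026, −0.12 and 0.076 (SE 0.0645, 0.104 and 0.0705), and the groups overlapped for each. Mrps30, which despite its name lies in the large subunit, held 19.1 to 21.1 CPM in the WT samples and 17.7 to 19.9 CPM in those of the miR-21-/- group. Its log2 fold change of −0.058 turned to 0.049 under the median of ratios and 0.044 under quantile normalization. Mrpl58, a peptidyl-tRNA hydrolase that became part of the large subunit, held 9.63 to 11.9 CPM in the WT samples and 11.2 to 11.9 CPM in those of the miR-21-/- group (log2 fold change 0.038, SE 0.0813). Mrps36, the member outside the ribosome, gave a log2 fold change of −0.0057 (SE 0.131), with near-identical pseudogenes in the table. Next to Mrpl39 and Mrpl13, the highest members were Mrpl46, Mrpl47 and Mrps14 at 0.17, 0.16 and 0.12 with limma adjusted p of 0.237, 0.227 and 0.206.

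Several called members share their place in the genome with another expressed gene. An expressed gene that overlapped the member, or started within 1 kb on the opposite strand, was found for 8 of the 11 members that fell, 1 of the 2 that rose and 30 of the 65 that were not called. Among the members with such a neighbour, one that itself fell was found for 8 of 8, 0 of 1 and 6 of 30, where 26.5% of all tested genes fell, and one that rose for 3 of the 30 and for none of the others. The 26.5% is a share of single genes, while some members had several neighbours, and the same counts over all tested genes were not made. Some members share exon sequence with their neighbour, as given below, so the values of such a pair are not independent. The largest fall in a neighbour of a called member was at Mrps6 (16:92058270 to 92112228, mm10), whose span holds Slc5a3, a myo-inositol transporter gene, on the same strand. Slc5a3 held 9.35, 14.1, 13.1 and 13.2 CPM in the WT samples and 4.71, 5.04, 5.03 and 3.87 CPM in those of the miR-21-/- group, so the groups did not overlap. Its log2 fold change was −1.24 (SE 0.129, limma adjusted p = 0.000129).

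Mrpl53 lies at the end of the longer gene model Gm42688 on the same strand, and its whole coding sequence is also in a transcript of that model. Gm42688 held 8.88 ± 0.753 CPM in the WT samples and 5.92 ± 0.154 CPM in those of the miR-21-/- group (SD, n = 4 each; log2 fold change −0.51, limma adjusted p = 0.00125). Mrps34 overlaps Nme3 on the same strand (−0.45), and Mrpl24 overlaps Rrnad1 on the opposite strand over 1073 bases (−0.34). The counting rule and its use of strand are not given in the sources used here, so the values of these overlapping genes are uncertain to that extent. Divergent neighbours that fell were Pnpla7 beside Mrpl41 (−0.59), Fau, a cytosolic ribosomal protein gene, beside Mrpl49 (−0.45), Twnk beside Mrpl43 (−0.40) and Zfp189 beside Mrpl50 (−0.30). A longer Twnk transcript in the GENCODE annotation also covers 50.4% of the Mrpl43 coding sequence on the opposite strand, so without strand the reads of these genes cannot be told apart there. Mrpl13 overlaps Mtbp by 342 bases on the opposite strand, and Mtbp gave 0.20 (limma adjusted p = 0.282). Neighbours of members that fell did not all pass the test. Mapk8ip3 overlaps Mrps34 over 2388 bases on the opposite strand (−0.11, limma adjusted p = 0.291). Eme2 starts beside Mrps34 (−0.14, limma adjusted p = 0.298), and Syvn1 overlaps Mrpl49 over 84 bases (0.023, limma adjusted p = 0.817).

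**Figure D3:**
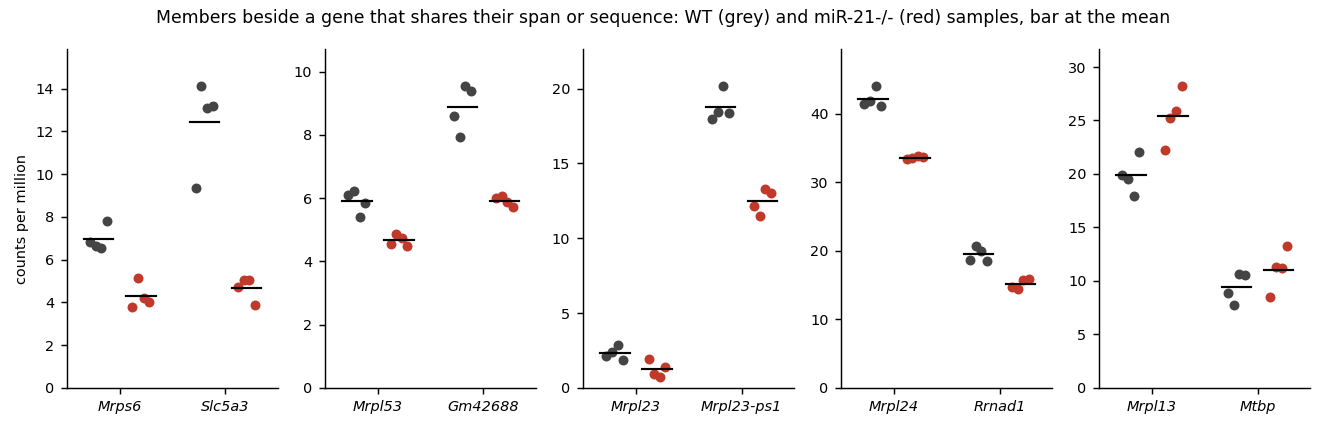
CPM of each sample for 5 called members beside a gene that shares their span (Slc5a3, Gm42688, Rrnad1, Mtbp) or sequence (Mrpl23-ps1), WT in grey, miR-21-/- in red, bars at the group means. Slc5a3 fell from a mean of 12.5 to 4.66 CPM, while Mrps6 fell from 6.95 to 4.28 CPM.

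The level of the members differed widely between genes. Their mean over all 8 samples ran from 1.76 CPM (Mrpl23) to 39.2 CPM (Mrpl33), with a median of 15.5 CPM and quartiles of 11.4 and 21.4 CPM. The value of Mrpl23 leaves out its near-identical copy Mrpl23-ps1, which held 15.6 CPM, so its low rank is uncertain. Levels were also taken per kb of annotated exon, with the exons of all transcripts of a gene joined. The highest were Mrps21 (29.3 CPM per kb), Mrpl52 (25.2), Mrpl54 (19.3), Mrpl18 (18.3) and Mrpl24 (16.8). The lowest were Mrps5 (2.24), Mrps10 (1.66), Mrps35 (1.35), Mrpl48 (1.35) and Mrpl23 (0.361), all 5 with long annotated exon sequence (4.88 to 8.63 kb). This order depends on the annotation as well as on the level. Mrpl33, the highest in CPM, came to 5.36 CPM per kb, with 7.33 kb of joined exon but a coding transcript of 478 bases. The coefficient of variation between samples of a group had a median of 6.58% in WT and 7.18% in miR-21-/- TAMs over the members, and of 9.67% and 8.96% over all tested genes.

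**Figure D4:**
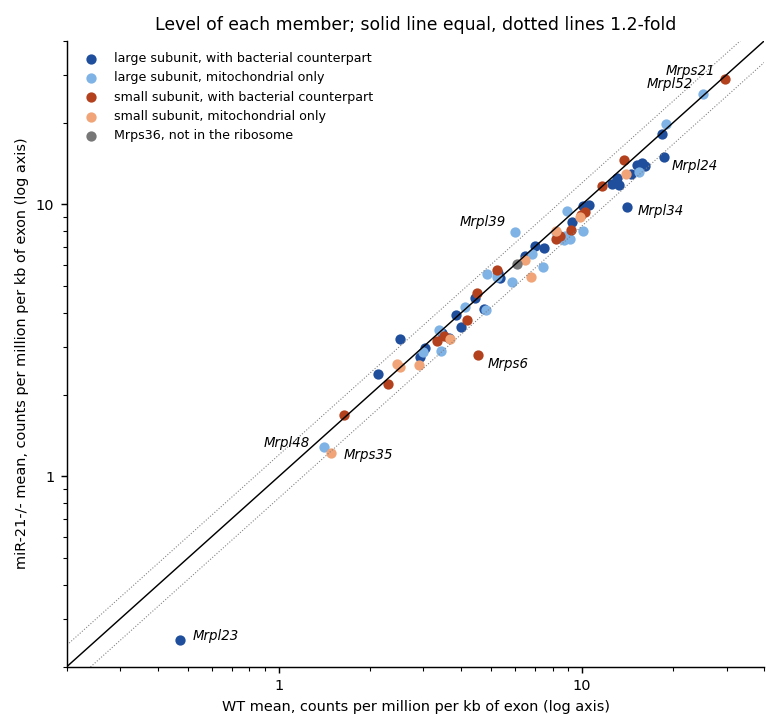
Mean level of each member in WT (horizontal) and miR-21-/- TAMs (vertical), in CPM per kb of exon on log axes, coloured by subunit and kind of protein. The points lie along the line of equal levels, and 68 of 78 members changed by less than 1.2-fold on the fitted log2 scale. Mrpl23, without the counts of its copy Mrpl23-ps1, is the lowest and Mrps21 the highest.

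The members are spread over 17 chromosomes, with 11 of them on chromosome 11. Across the 78 members, the log2 fold change had a Spearman correlation of 0.28 with the number of exons, −0.20 with the GC content of the transcript, 0.063 with coding length and −0.026 with the length of the 3′ UTR. Over all 11498 tested genes with a transcript the same correlations were −0.036, −0.21, −0.065 and −0.0018. These are descriptions over genes measured in the same 8 libraries.

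Promoters of nuclear genes for mitochondrial proteins are known for sites of NRF1, of the ETS family factor GABP and of YY1. The RefSeq promoter table (GRCm38.p6, 250 bases before to 50 bases after the start) held 75 promoters of 69 members, and these were searched on both strands for GCGCATGC (NRF1), CCGGAAG (ETS) and AAGATGGC (YY1). The NRF1 letters were found for 8 members (11.6%), against 3.05% of all 27025 genes in the table and 6.07% of the 9452 tested ones. The ETS letters were found for 26 members (37.7%), against 9.93% and 20.99%, and the YY1 letters for 12 members (17.4%), against 3.19% and 5.54%. Some match was present for 38 of the 69 members (55.1%). No match of one motif shared bases with a match of another, and 3 pairs of the same motif overlapped. Windows of called members are printed with the match in capitals, because they show these letters beside genes that fell and a gene that rose.
Mrpl39, NRF1 letters, chr16:84735351-84735380, minus strand: caaggagaggcGCGCATGCgcccccgcgtg
Mrpl34, ETS letters, chr8:71464878-71464906, plus strand: aactacagctcCCGGAAGgccccgcggca
Mrpl53, ETS letters, chr6:83109038-83109066, plus strand: ccgcggagccgCCGGAAGcggtccgttcc
Mrpl43, ETS letters, chr19:45006481-45006509, minus strand: tcgcggtgactCCGGAAGcaaaactctcc
Mrpl49, YY1 letters, chr19:6057721-6057750, minus strand: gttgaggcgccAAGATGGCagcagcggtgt
The 10 called members with a promoter in the table held a match for 5. The median log2 fold change was −0.062 in members with the NRF1 letters, −0.034 with the ETS letters, −0.088 with the YY1 letters and −0.091 with none of them. The letters are a description of these windows and not a site of binding.

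The nuclear regulators linked to these promoters were measured in the same samples, and 3 of the 9 tested genes fell while none rose in the deposited scaling, where 26.5% of all tested genes fell. Myc, a driver of ribosome production and growth, held 81.7, 84.5, 99.1 and 81.6 CPM in the WT samples and 61.9, 67.9, 56.7 and 58.3 CPM in those of the miR-21-/- group, with no overlap (log2 fold change −0.49, SE 0.0787, limma adjusted p = 0.00123). Yy1 held 111, 111, 99.8 and 101 CPM in the WT samples and 77.7, 81.0, 94.6 and 85.9 CPM in those of the miR-21-/- group (−0.32, SE 0.0704, limma adjusted p = 0.00643). Esrra, a nuclear receptor of mitochondrial genes, ranged from 23.8 to 28.4 CPM in WT and from 22.3 to 23.3 CPM in miR-21-/- TAMs (−0.21, SE 0.0641, limma adjusted p = 0.0277). In all 3 every miR-21-/- sample was lower than every WT sample. The other regulators did not pass: Ppargc1b gave 0.27, Gabpa 0.11, Mtor −0.11, Nrf1 −0.10, Gabpb1 −0.083 and Pprc1 −0.072. Under the median of ratios 2 of the 9 were lower (Myc and Yy1) and 2 higher (Ppargc1b at 0.37 and Gabpa at 0.22), and under quantile normalization the same 2 were lower and 1 (Ppargc1b at 0.44) was higher, so Esrra passed only as deposited among the 3 scalings. Of the others, Nrf1, Gabpb1 and Pprc1 turned above 0 under the median of ratios, at 0.011, 0.024 and 0.039. Ppargc1a was below the filter on low values.

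The other genes of mitochondrial translation were set beside the members in lists by role, chosen by function. Over the 67 of them in the table, 19 fell (28.4%) and none rose, with a median log2 fold change of −0.17, where 26.5% of all tested genes fell. The aminoacyl-tRNA enzymes of mitochondria held most of these, with 11 of 21 lower and a median of −0.26. Lars2, the leucyl-tRNA synthetase, was at a level far above the rest of its list, at 981, 507, 558 and 1304 CPM in the WT samples and 627, 394, 264 and 258 CPM in those of the miR-21-/- group. Its samples varied widely within each group and the groups overlapped (log2 fold change −1.10, SE 0.345, limma adjusted p = 0.0308). Whether all of these counts came from Lars2 mRNA was not tested. The highest of the list was Qrsl1 at 0.21 (limma adjusted p = 0.165).

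Assembly and rRNA modification factors gave 6 of 23 lower (26.1%), near the share of all tested genes, with a median of −0.16. For this list and those that follow, 26.5% of all tested genes fell and 9.49% rose. The lowest was Ddx28, an RNA helicase for the large subunit, at 16.3, 15.8, 17.0 and 19.6 CPM in the WT samples and 12.3, 13.2, 12.7 and 12.8 CPM in those of the miR-21-/- group (log2 fold change −0.40, SE 0.0773, limma adjusted p = 0.00346), and the highest was Mpv17l2 at 0.15. Translation factors gave 1 of 10 lower, with Mtrf1l at −0.26 (not past the test) and Gfm1 at 0.12 as the lowest and highest. Genes of mitochondrial DNA transcription and mRNA stability gave 1 of 8 lower, Twnk, the mitochondrial DNA helicase with the overlap with Mrpl43 given above, at −0.40, and the highest was Lrpprc at 0.068. None of the 5 ribosome proteins with other symbols passed, from Gadd45gip1 at −0.27 (limma adjusted p = 0.0572) to Chchd1 at 0.15. Under the median of ratios 7 of the 67 were lower and 3 higher, and under quantile normalization 7 and 4, so fewer genes passed and a few were higher. Of the 21 aminoacyl-tRNA enzymes, 4 were then lower and 0 higher (median −0.15), or 5 and 1 (median −0.15), while the medians of the transcription and stability genes turned above 0, at 0.032 and 0.050. Of all tested genes, 14.7% were lower and 15.6% higher under the median of ratios, and 16.3% and 13.7% under quantile normalization.

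Set beside the members, the genes of the cytosolic ribosome showed another picture in the same samples. Of 82 genes with symbols of cytosolic ribosomal proteins 78 were tested, and 70 of these fell (89.7%) and none rose, where 26.5% and 9.49% of all tested genes did. Under the median of ratios 59 were lower and 1 higher, and under quantile normalization 64 and 0. Their median log2 fold change was −0.44, and it was −0.33 under the median of ratios and −0.40 under quantile normalization, where that of the members turned to 0.020 and 0.030. They summed to 9523 to 10961 CPM in the WT samples and 7274 to 7992 CPM in the miR-21-/- samples, with no overlap. The nuclear genes of oxidative phosphorylation subunits lay near the members: 14 of 77 tested fell (18.2%) and 1 rose (1.30%), with a median of −0.053. Both shares were under those of all tested genes (26.5% and 9.49%). The balance of these genes turned with the scaling, to 3 lower and 14 higher with a median of 0.053 under the median of ratios, and to 6 lower and 12 higher under quantile normalization. All tested genes were then 14.7% lower and 15.6% higher under the median of ratios, and 16.3% and 13.7% under quantile normalization. These lists were compared by their counts and medians, and the difference between lists was not tested.

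**Figure D5:**
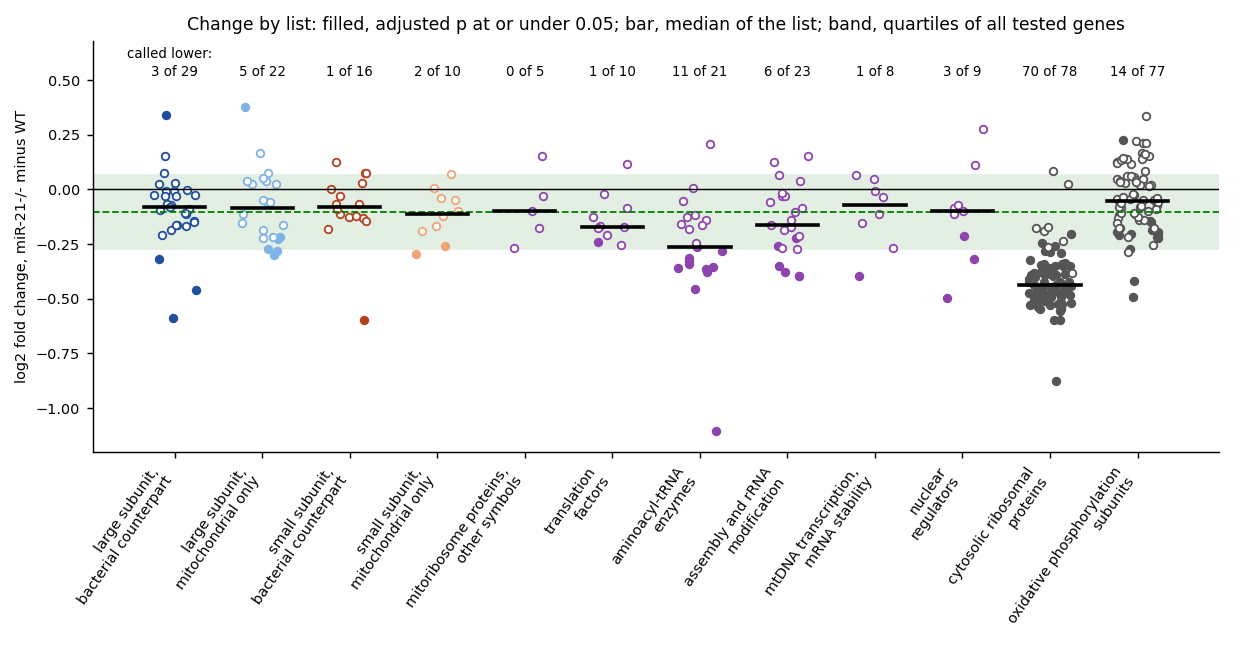
Log2 fold change of each tested gene (points, filled past adjusted p 0.05) by list, with the list median as a bar, the number called lower above, and the median and quartiles of all tested genes as dashed line and band. The 4 classes of members and the oxidative phosphorylation genes centre inside the band, while 68 of 78 cytosolic ribosomal proteins lie below it (median −0.44), 9 inside and 1 above.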

How the data were processed

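TAMs of 4 WT and 4 miR-21-/- samples were profiled by mRNA sequencing. Per the labels, reads were aligned with STAR to mm10 and processed in Partek 7.0; counting rule and strand are not given in the sources used here. The deposited values are CPM (counts scaled to 1e+06) plus 0.0001, normalized by the authors. The estimated depth of 20.2 to 33.3 in units of 1e+06 reads per sample came from the step between low values; 76.0 to 77.2% of low values (up to 20 reads) were whole reads within 0.05, so reads were not recovered and no count test was run.

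CPM was transformed to log2(CPM + 1), so fold changes of low genes are understated. The filter kept 13850 of 53247 genes, those averaging 1 or more per 1e+06 of a column's total. Groups were compared by linear models in limma (version 3.58.1, R version 4.3.3) with trended empirical Bayes variances, adjusting by Benjamini-Hochberg over all tested genes, at adjusted p 0.05 or at 0.005 with over 1.5-fold. The fit was tested on simulated data with 50 genes changed at each size among 13850, a setting unlike these data. There 4% of changes of 0.2 and 44% of changes of 0.4 on the log2 scale passed adjusted p 0.05, so small changes are mostly missed. Near-identical copies (at least 95% identity over 50% of the coding sequence) came from BLAST+ 2.17.0; 18 of 78 members had one, overlapping gene models and either strand included. Tables and figures were made with Python 3.11.15, pandas 2.3.3, scipy 1.17.1 and matplotlib 3.10.9.

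The members, the lists and the tests were chosen with earlier results of these data known. Genes named were the members past the study's limits, the 10 lowest and 5 highest, members with a set role, the extremes of each list, all regulators, and the 5 highest and lowest levels; Mrpl43 and the genes that overlap or neighbour members were named after their values were seen. Alternatives were other pseudocounts, filters, scalings, weights, a replicate block, each sample left out, other limits, and pseudogene copies added (chosen after seeing the data). Groups came from the labelled genotype. The sequence of 1 seed match is not reported here.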

Additional observations from a re-analysis of the deposited data

Results flagged for a closer look

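In groups of 4, single samples stood apart from the others of their group by Dixon's criterion in 6 of 92 groups of values tested, where chance gives about 1 in 20. The summed CPM of the members was 1220 in miR-21-/- replicate 1, against 1291 to 1293 in the other miR-21-/- samples. Mrps12 was low in WT replicate 1 at 8.06 CPM (others 8.68 to 8.81), Mrps18c in WT replicate 3 at 13.8 CPM (15.1 to 15.2) and Mrpl58 in WT replicate 2 at 9.63 CPM (11.7 to 11.9). Mpv17l2 was low in WT replicate 2 at 8.17 CPM (8.76 in the others), and Myc was high in WT replicate 3 at 99.1 CPM (81.6 to 84.5).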

How the results depend on the processing

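The count of 11 members lower at adjusted p 0.05 was 4 under the median of ratios, 3 under quantile normalization and 3 at adjusted p 0.005, and the count of 2 higher was 6 under quantile normalization and 1 at adjusted p 0.005. The 1 member lower at the study's limits was lost (0) with a pseudocount of 10, no filter, the median of ratios, quantile normalization, array weights or the replicate block; with over 1.2-fold instead, 3 were lower and 1 higher. The 19 lower genes of the other lists were 7 under the median of ratios and 7 under quantile normalization, with 3 and 4 higher. The median of the members was −0.050 with a pseudocount of 10, 0.020 under the median of ratios and 0.030 under quantile normalization, and its difference from all genes was −0.068 with no filter. Leaving out each sample gave 6 to 11 members lower (6 without WT replicate 2, miR-21-/- replicate 2 or 4, 7 without WT replicate 3), 0 to 1 at the study's limits, 14 to 19 genes of the other lists, and −0.0053 to 0.034 for the difference of medians. Signs reversed for genes near 0: Mrps12 (0.020, quantile), Mrps30 (0.049 and 0.044, median of ratios and quantile), Mrps36 (0.093, 0.15 and, with array weights, 0.041), Nrf1 (0.011, median of ratios), Gabpb1 (0.024 and 0.019) and Pprc1 (0.039), and with a sample left out Mrpl11 (−0.011 to 0.085), Mrps18a (−0.0014 to 0.046), Mrps36 (−0.080 to 0.090) and Mrpl58 (−0.029 to 0.063). The cause of these changes was not tested.

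With the replicate block, 8 members were lower and 2 higher, where 23.9% and 9.07% of all tested genes were. The replicate numbers used here did not pair the samples: same-numbered samples correlated at 0.083, −0.111, −0.143 and 0.220, and only WT replicate 4 correlated best with its own number. The titles of the miR-21-/- samples carry other numbers, and a block by those was not run. Of 790 other values for 45 named genes, 674 kept direction and side of the threshold, 80 lost significance, 17 gained it and 19 reversed. Symbols were unique, so keeping every row of a repeated symbol gave no other value; count tests were not run. Mrpl23 rests on the fewest reads of the members, an estimated under 70 per sample, while its near-identical copy Mrpl23-ps1 took an estimated 324 to 537.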
